A study of Mus musculus with 12 samples.

Results

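Pericentral (PC) hepatocytes, the liver cells that lie around the central vein of the lobule, were compared with periportal (PP) hepatocytes, which lie around the portal tract, in fed mice. The libraries were chosen by their labels, which name the zone and the fed state. They are 6 of the 12 libraries of the series, 3 PC and 3 PP, and the comparison was run over the 11643 genes with enough counts among 28030 listed. All mice were wild-type (WT) females of 12 weeks on normal chow. Over 3 days they had been trained to fast for 16 h overnight and to feed for 8 h in daytime, and they were killed 4 h into feeding, with 20% sucrose in the drinking water. The other 6 libraries are PC and PP hepatocytes of mice of the same kind that had gone 24 h without food and sucrose, and they enter only the last comparison. All labels name digitonin, a detergent that kills the hepatocytes it reaches, which allows the zone it does not reach to be collected. The libraries of a group are called biological replicates, but nothing says whether libraries of 1 number in both zones came from the same mouse. The p-values rest on the spread among these libraries. Total RNA of many cells was sequenced, so fewer cells of a kind and less RNA per cell cannot be told apart.

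Blood enters the liver lobule at the portal tract and leaves at the central vein, so that oxygen, nutrients and hormones form gradients along the row of hepatocytes between them. Periportal hepatocytes are known for gluconeogenesis, urea synthesis, amino acid breakdown and much of the secretion of plasma proteins. Pericentral hepatocytes are known for glutamine synthesis, drug metabolism and bile acid synthesis. Wnt ligands from the endothelium of the central vein keep beta-catenin active in the hepatocytes next to it, and beta-catenin acts on its target genes through the TCF/LEF family of DNA-binding proteins.

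The fed libraries held 18880742 to 27449412 estimated counts. The first principal component of log expression carried 48.2% of the variance and separated the zones. Differences were tested with edgeR's quasi-likelihood test, and calls were made where the p adjusted by Benjamini and Hochberg was under 0.05. In all, 736 genes (6.32% of those tested) were called, 366 of them higher in PC (3.14%) and 370 lower in PC (3.18%). For 3066 genes (26.3%) the PC and PP libraries did not overlap, and all 736 called genes were among them. A difference of at least 1 on the log2 scale was found for 400 called genes, and a difference of at least 2 for 176. The median over all genes tested was -0.01. Genes called higher in PC made up 8.9% of the counts of PC libraries and 3.6% of those of PP libraries, and genes called lower in PC made up 11% and 19.3%. The number of calls depended on single libraries, falling to 469 without PC replicate 1, 351 without PC replicate 2, 422 without PC replicate 3 and 450 without PP replicate 2. Calls made in every one of the 6 fits that left out 1 library numbered 319, of which 175 were higher and 144 lower in PC. Except for Neu3, named only for its promoter, a gene that lost its call in any of these fits is given with the libraries and the adjusted p.

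**Figure D1:**
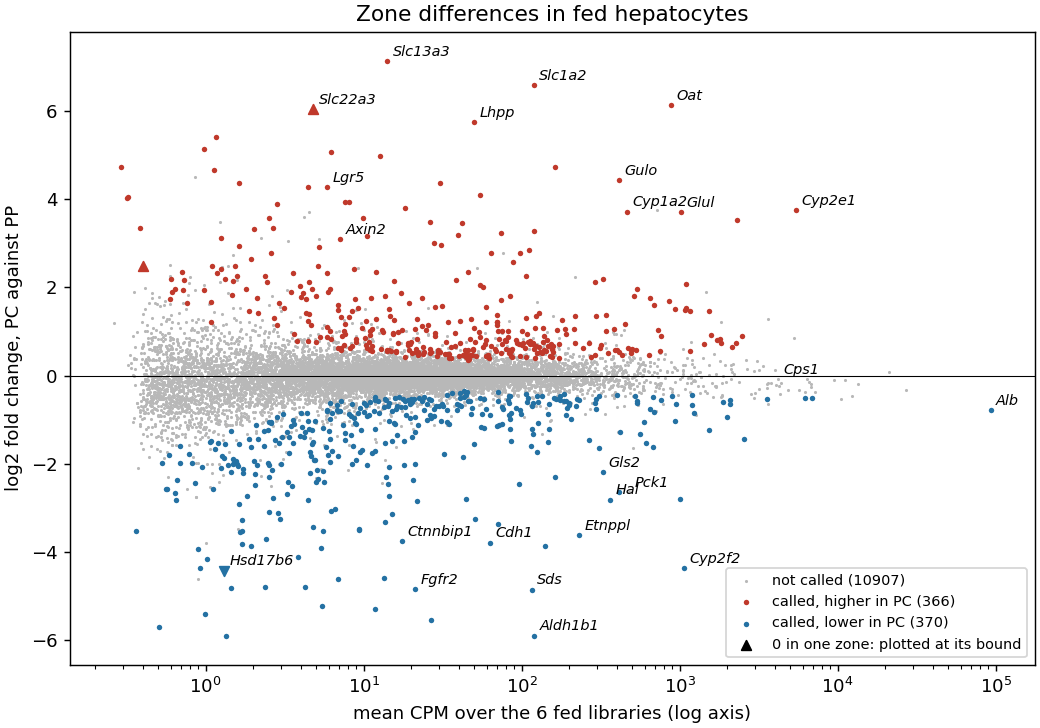
Each point is 1 of 11643 genes, with its mean level over the 6 fed libraries in CPM (log axis) against its log2 fold change, PC against PP. Red and blue points are the 366 genes called higher and the 370 called lower in PC, grey points were not called, and triangles mark 3 called genes without a count in one zone, drawn at the bound set by 3 counts. Slc1a2, Oat and Cyp2e1 lie high above 0 and Aldh1b1, Sds and Cyp2f2 far below it, while Cps1 lies near 0.

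The known zone markers separated the libraries in the direction of their labels. Of 23 pericentral markers tested, 20 were called higher in PC and 0 lower, with a median log2 fold change of 2.12. Of 24 periportal markers, 18 were called lower in PC and 0 higher, with a median of -1.55. Levels are given in CPM, the count scaled to the size of its library. Slc1a2, a glutamate transporter of the plasma membrane (chromosome 2, 102658659 to 102790784, plus strand, GRCm38), read 217, 239 and 251 CPM in the PC libraries and 1.58, 2.36 and 3.53 CPM in the PP libraries. All 3 PC libraries stood far above all 3 PP libraries (log2 fold change 6.58, SE 0.26, adjusted p = 9.1e-06). Oat, the ornithine aminotransferase of mitochondria, read 1829, 1661 and 1764 CPM in PC and 29.9, 13.4 and 31.6 CPM in PP. Again the groups were far apart (log2 fold change 6.13, SE 0.36, adjusted p = 0.00016). Glul, which encodes glutamine synthetase, read 1410, 2013 and 2231 CPM in PC and 105, 178 and 150 CPM in PP. PC replicate 1 was the lowest of its group and still well above the PP libraries (log2 fold change 3.71, SE 0.26, adjusted p = 0.0002). Gulo, the last enzyme of vitamin C synthesis, had a mean of 791 ± 61.4 CPM in PC and 36.8 ± 7.79 CPM in PP (SD, n = 3 each).

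On the periportal side, Sds, the serine dehydratase that turns serine into pyruvate, read 5.59, 11.1 and 6.49 CPM in PC and 163, 283 and 226 CPM in PP. Every PP library exceeded every PC library (log2 fold change -4.85, SE 0.35, adjusted p = 0.00062). Cyp2f2, a cytochrome P450 long used as a periportal marker, read 78.7, 125 and 89.7 CPM in PC and 1699, 2248 and 2121 CPM in PP. Its groups were equally distinct (log2 fold change -4.37, SE 0.22, adjusted p = 1.8e-05). Ctsc, the lysosomal protease cathepsin C, differed by -3.86 (SE 0.14) and had among the smallest spreads of these markers, with 18 ± 1.72 CPM in PC and 261 ± 31.1 CPM in PP. Some classical markers did not pass. Cyp7a1, the rate-limiting enzyme of bile acid synthesis, read 368, 411 and 296 CPM in PC and 153, 22.5 and 52.3 CPM in PP. Its libraries did not overlap, but the PP values spread widely and the test missed the threshold (log2 fold change 2.24, SE 0.72, adjusted p = 0.17). Pck1, the PEP carboxykinase of gluconeogenesis, read 265, 82.7 and 46.3 CPM in PC and 1308, 813 and 341 CPM in PP. The highest PC library came close to the lowest PP library, and the difference of -2.64 (SE 0.85) was not called (adjusted p = 0.17).

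**Figure D2:**
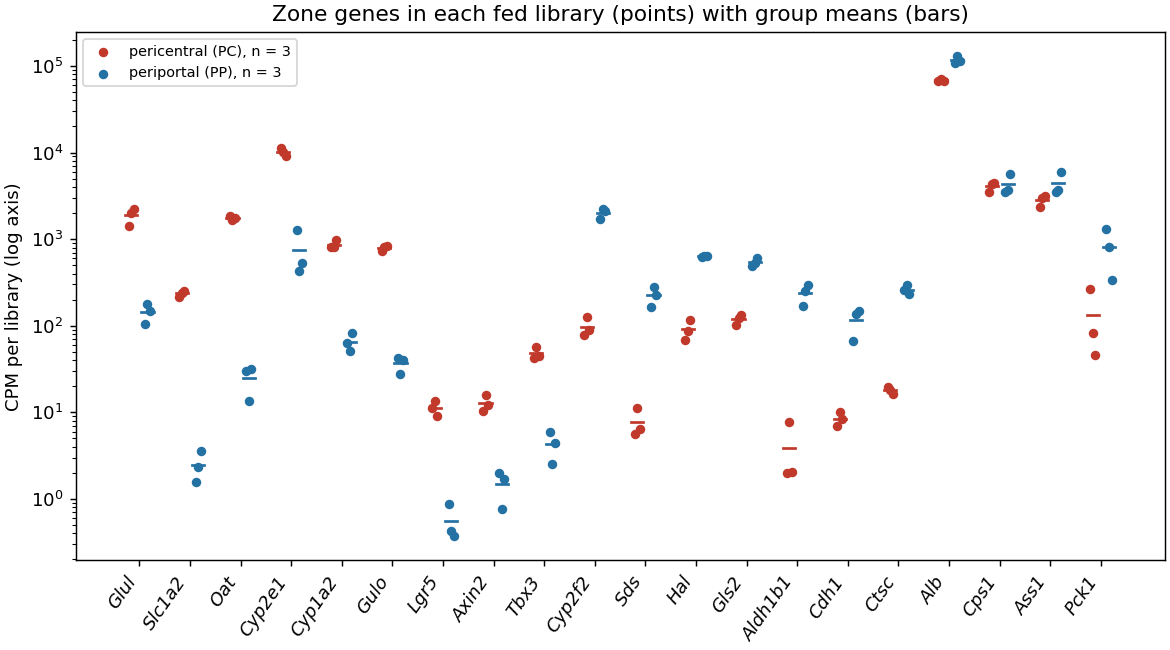
CPM in each fed library (log axis) for 20 genes, with red points for the 3 PC libraries, blue points for the 3 PP libraries and bars for the group means. Pericentral genes from Glul to Tbx3 stand higher in red and periportal genes from Cyp2f2 to Ctsc higher in blue, whereas the points of Cps1 overlap.

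Target and feedback genes of the Wnt pathway were higher in PC as a group. Of 12 tested, 9 were called higher and 0 lower, beside 3.14% and 3.18% of all genes, with a median of 2.25. Axin2, a scaffold of the complex that destroys beta-catenin and a standard readout of the pathway, read 10.5, 15.7 and 12.2 CPM in PC and 1.97, 0.77 and 1.71 CPM in PP. The PC libraries were all higher (log2 fold change 3.10, SE 0.31, adjusted p = 0.00096). Lgr5, a receptor for R-spondins, which amplify Wnt signals, read 11.1, 13.5 and 8.96 CPM in PC and 0.88, 0.43 and 0.37 CPM in PP. PP libraries thus held little of it (log2 fold change 4.28, SE 0.31, adjusted p = 0.00014). Tbx3, a transcriptional repressor, differed by 3.48 (SE 0.28), with 48.1 ± 7.6 CPM in PC and 4.27 ± 1.71 CPM in PP. The secreted Wnt inhibitor Notum differed by 2.01 (SE 0.17). Rnf43, the ubiquitin ligase that removes Wnt receptors from the cell surface, differed by 1.59 (SE 0.21). Nkd1, another feedback inhibitor, lost its call without PC replicates 2 (adjusted p = 0.15) and 3 (0.12) and without PP replicate 2 (0.15). Ccnd1, Prox1 and Znrf3 were not called.

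Promoter sequences were at hand for 9059 of the 11643 genes tested. They came in 11543 windows, from 250 bases before to 50 bases after a start of transcription. These windows were searched for the TCF/LEF core, CTTTGAT on either strand. Shown are 5 promoters. Of the 80 genes called higher in PC with a difference of at least 2, 59 had a window. Of these 59, Slc1a2, Sp5, Tnfrsf19 and Lect2 alone had a match, and all 4 are shown. Hal is a periportal gene with such a difference and a match. The periportal genes Serpina12 (-3.52) and Tiam2 (-2.78) have a match too and are not shown. The sequences are RefSeq's, of GRCm38.p6, 250 bases before the start, 5′ to 3′ on the strand of the gene, with the match in capitals, as CTTTGAT or its reverse complement ATCAAAG.
Slc1a2, chr2:102706188-102706437, plus strand: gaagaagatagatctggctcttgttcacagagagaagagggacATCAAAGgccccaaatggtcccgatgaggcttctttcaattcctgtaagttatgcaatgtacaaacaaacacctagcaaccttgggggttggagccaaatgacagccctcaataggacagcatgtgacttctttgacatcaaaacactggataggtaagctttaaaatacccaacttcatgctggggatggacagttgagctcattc
Sp5, chr2:70474673-70474922, plus strand: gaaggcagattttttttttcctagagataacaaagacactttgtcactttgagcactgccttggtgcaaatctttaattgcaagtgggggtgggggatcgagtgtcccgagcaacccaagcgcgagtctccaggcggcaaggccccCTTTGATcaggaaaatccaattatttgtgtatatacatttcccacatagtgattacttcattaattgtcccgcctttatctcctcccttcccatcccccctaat
Tnfrsf19, chr14:61037988-61038237, minus strand: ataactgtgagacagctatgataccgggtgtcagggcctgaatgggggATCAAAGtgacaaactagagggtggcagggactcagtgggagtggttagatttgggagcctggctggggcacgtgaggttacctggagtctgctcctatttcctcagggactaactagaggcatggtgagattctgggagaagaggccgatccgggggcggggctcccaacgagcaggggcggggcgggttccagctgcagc
Lect2, chr13:56548539-56548788, minus strand: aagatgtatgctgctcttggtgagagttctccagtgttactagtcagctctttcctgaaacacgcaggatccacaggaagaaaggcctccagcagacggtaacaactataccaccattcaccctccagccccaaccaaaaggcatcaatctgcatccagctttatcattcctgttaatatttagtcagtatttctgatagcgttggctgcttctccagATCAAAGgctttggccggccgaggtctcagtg
Hal, chr10:93488518-93488767, plus strand: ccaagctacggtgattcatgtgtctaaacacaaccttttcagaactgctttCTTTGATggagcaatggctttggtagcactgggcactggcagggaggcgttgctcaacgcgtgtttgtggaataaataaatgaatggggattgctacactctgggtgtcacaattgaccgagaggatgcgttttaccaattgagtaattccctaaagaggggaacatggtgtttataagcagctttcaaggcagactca
The match began 207 bases before the internal start in Slc1a2. In the others it began 104 bases before the start in Sp5, 202 in Tnfrsf19, 32 in Lect2 and 199 in Hal.

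Sp5, a transcription factor and Wnt target, read 1.9, 3.18 and 1.76 CPM in PC and 0, 0.1 and 0.05 CPM in PP. It was low in all libraries and near 0 in PP (log2 fold change 5.41, SE 0.65, adjusted p = 0.0016). Tnfrsf19, a receptor of the tumour necrosis factor family, read 11, 14.7 and 10.6 CPM in PC and 0.35, 0.19 and 0.54 CPM in PP. PC libraries were all higher (log2 fold change 5.07, SE 0.30, adjusted p = 4.4e-05). Lect2, a secreted hepatokine, read 220, 217 and 218 CPM in PC and 29.5, 16.4 and 21.6 CPM in PP. The PC libraries lay close together (log2 fold change 3.28, SE 0.20, adjusted p = 7.8e-05).

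Over all windows the TCF/LEF core was rare among genes of both zones. It was found in 14 of 367 windows of genes called higher in PC (3.81%), in 7 of 346 windows of genes called lower (2.02%) and in 295 of 11543 windows of all genes tested (2.56%). Among genes with differences of at least 2, it was in 4 of 73 pericentral windows (5.48%) and 3 of 84 periportal windows (3.57%). Of the Wnt list, 7 genes had a window and 2 of these, Sp5 and Tnfrsf19, held a match. The letters CAAAGTCCA, a site form of HNF4A, the main nuclear receptor of hepatocyte identity, were in 10 windows of genes called higher in PC (2.72%), in 2 of genes called lower (0.58%) and in 59 of all (0.51%). Among genes with differences of at least 2, they were in 1 of 73 pericentral windows (1.37%) and 1 of 84 periportal windows (1.19%). Genes with the letters include Cyp8b1, Agxt2, Sult1b1, Cyp2c67 and Cyp2c69 on the pericentral side and Slc3a1 and Neu3 on the periportal side. Neu3 was called in only 1 of the 6 fits that left out 1 library. The reverse complement of the TCF/LEF core shares the letters CAAAG with it. GGGCGG, the box of the Sp and KLF factors, was in 50.7% of windows of genes called higher in PC, in 58.1% of those called lower and in 61.8% of all windows. A match is a stretch of letters and not a measured site, and these shares were not tested.

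Of 20 receptors and core proteins of the Wnt pathway tested, 1 was called, beside 6.32% of all genes, and the median was -0.13. The beta-catenin gene Ctnnb1 differed by 0.08 and the scaffold Axin1 by -0.09, and neither was called. The called gene was Tcf7l1, a TCF family member known mainly as a repressor, which read 0.69, 1.18 and 1.46 CPM in PC and 7.24, 8.44 and 7.49 CPM in PP. It was higher in every PP library (log2 fold change -2.81, SE 0.26, adjusted p = 0.00057). Its relative Tcf7, in the target list, read 6.61, 8.07 and 8.51 CPM in PC and 2.15, 1.78 and 2.68 CPM in PP. That pair had opposite order (log2 fold change of Tcf7 1.81, SE 0.20, adjusted p = 0.0014). Ctnnbip1, whose protein blocks the binding of beta-catenin to TCF proteins, was among the 15 lowest genes. It read 2.15, 3.04 and 2.01 CPM in PC and 25.4, 34.2 and 38.8 CPM in PP. The PP libraries were all higher (log2 fold change -3.75, SE 0.22, adjusted p = 4.6e-05).

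Nitrogen metabolism was split by step. Over all genes, 3.14% were called higher in PC and 3.18% lower. Of 13 genes of ammonia and glutamine handling, 4 were called higher in PC (Slc1a2, Oat, Glul and Slc1a5) and 2 lower (Gls2 and Got1). Gls2, the glutaminase that releases ammonia from glutamine, read 102, 121 and 132 CPM in PC and 486, 524 and 605 CPM in PP. It was thus opposite to glutamine synthetase in every library (log2 fold change -2.18, SE 0.14, adjusted p = 6.2e-05). Slc1a5, a glutamine transporter, differed by 2.34 (SE 0.41) and lost its call without PC replicate 2 (adjusted p = 0.052) or PP replicate 2 (0.075). Glud1, the glutamate dehydrogenase, differed by 0.36 and was not called. In the urea cycle, 2 of 11 genes were called higher in PC and 2 lower. Arg1, the arginase that makes urea, read 814, 908 and 928 CPM in PC and 1495, 1586 and 1687 CPM in PP. The PP libraries were higher without overlap, by less than the amino acid genes above (log2 fold change -0.85, SE 0.11, adjusted p = 0.0029). Asl, the argininosuccinate lyase, differed by -0.83 and was called only in the full set and without PP replicate 1. Its adjusted p was 0.069, 0.085 and 0.057 without PC replicates 1, 2 and 3, and 0.07 and 0.071 without PP replicates 2 and 3. Cps1, the first enzyme of the cycle, read 3495, 4363 and 4411 CPM in PC and 3518, 3716 and 5702 CPM in PP. These ranges overlapped (log2 fold change -0.08, SE 0.20, adjusted p = 0.89). Ass1 (-0.63, adjusted p = 0.16) and Otc (-0.36, adjusted p = 0.094) were not called. Higher in PC were the mitochondrial carbonic anhydrase Car5a, by 0.61 (SE 0.09), and the glycerol and urea channel Aqp9, by 1.35 (SE 0.17).

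Called genes of serine, glycine, histidine and threonine breakdown were mostly higher in PP. Of 18 genes, 8 were called lower in PC and 1 higher, beside 3.18% and 3.14% of all genes. The other 9 were not called, and the median was -0.15. With all 12 libraries in the fit, 4 were called lower. Along histidine breakdown, all 4 listed enzymes were lower in PC: Hal, Uroc1, Amdhd1 and Ftcd. Hal, which takes the first step, read 68.5, 87 and 116 CPM in PC and 627, 638 and 636 CPM in PP. The PP libraries lay within a narrow band far above the PC libraries (log2 fold change -2.81, SE 0.19, adjusted p = 9e-05). The next enzymes differed by -1.32 (Uroc1, SE 0.16), -1.22 (Amdhd1, SE 0.17) and -1.46 (Ftcd, SE 0.13). Sdsl, a relative of Sds, read 1.42, 1.75 and 1.41 CPM in PC and 16.1, 18.3 and 17.1 CPM in PP. It had the same order as Sds (log2 fold change -3.48, SE 0.15, adjusted p = 9.1e-06). Gldc, the decarboxylase of the glycine cleavage system, differed by -2.30 (SE 0.27). Agxt2, a mitochondrial aminotransferase, was the exception, higher in PC by 1.07 (SE 0.10). Other amino acid lists held few calls, beside 6.32% of all genes. Of 16 aromatic amino acid genes, 1 was called higher and 1 lower, the lower one left only without PP replicate 1. Of 17 branched-chain, lysine and proline genes, 2 were called higher, and 0 without any 1 PC replicate or PP replicate 2. Of 16 methionine cycle and one-carbon genes, 1 was called higher and 1 lower. Of 15 amino acid transporters, 2 were called higher and 1 lower. Hpd, which acts in tyrosine breakdown, was higher in PC by 0.74 (SE 0.11). Csad, which makes hypotaurine for taurine, was higher by 2.57 (SE 0.35), and the folate enzyme Mthfd1l was lower, at -2.34 (SE 0.28). Slc1a4, a neutral amino acid transporter, was higher by 3.18 (SE 0.44).

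Calls in glucose metabolism differed by list, where 6.32% of all genes were called. Of 12 gluconeogenic genes, 3 were called lower in PC, beside 3.18% of all genes, and 0 higher. Their median was -0.54, and 7 did not overlap with PP higher (58.3% of them, beside 13.2% of all genes). Only 1 of the calls was left without PC replicate 1 and 1 without PC replicate 2. G6pc, the phosphatase that releases free glucose, read 221, 244 and 273 CPM in PC and 499, 821 and 472 CPM in PP. PP libraries were higher (log2 fold change -1.28, SE 0.22, adjusted p = 0.012), and the call was lost without PC replicate 1 (adjusted p = 0.054) or 2 (0.07). Fbp1, fructose bisphosphatase, differed by -0.67 (SE 0.11) and lost its call without the same libraries (adjusted p = 0.056 and 0.074). Got1, the cytosolic aspartate aminotransferase, kept its call in each fit, at -0.87 (SE 0.10). Of 17 genes of glycolysis and fructolysis, 1 was called: Pfkfb3, which makes the activator of phosphofructokinase, read 17.6, 20.9 and 13.2 CPM in PC and 3.64, 6.71 and 4.87 CPM in PP. PC libraries were higher without overlap (log2 fold change 1.77, SE 0.25, adjusted p = 0.0046). Pfkfb3 was not called with all 12 libraries in the fit. None of 13 glycogen genes, 10 genes of the pentose phosphate pathway and NADPH, and 13 genes of the insulin and FoxO list was called by edgeR with all 6 libraries. An unadjusted p under 0.05 was found for 5, 1 and 5 of them, and DESeq2 called 2, 0 and 2.

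Genes of fat synthesis and oxidation had few calls in the fed state, where 6.32% of all genes were called. Of 17 genes of de novo lipogenesis, edgeR called 0 (2 had an unadjusted p under 0.05 and DESeq2 called 2), with a median of -0.01, and the regulator Srebf1 differed by -0.03. Summed over this list, levels were 20788.5, 23539.8 and 33520.1 CPM in PC and 12668.3, 34954.5 and 32983.5 CPM in PP. Libraries of the same zone thus spread widely, and the lack of calls does not show equal levels. Of 24 genes of mitochondrial and related fatty acid oxidation, 1 was called, and Cpt1a, which admits fatty acids to mitochondria, differed by 0.06. That gene was Eci3, an enoyl-CoA isomerase, which read 0.47, 0.11 and 0.25 CPM in PC and 7.59, 18 and 6.1 CPM in PP. It was near 0 in PC (log2 fold change -5.22, SE 0.64, adjusted p = 0.0045). Hsd17b13, a lipid droplet protein, read 123, 109 and 110 CPM in PC and 814, 688 and 624 CPM in PP. The PP libraries were far higher (log2 fold change -2.64, SE 0.13, adjusted p = 1.8e-05). Of 22 apolipoprotein and lipoprotein genes, 2 were called, both lower in PC: Apoc2, the activator of lipoprotein lipase, by -1.33 (SE 0.11), and Apoc3, by -0.44, which lost its call in each of the 6 fits (adjusted p = 0.054 to 0.21). Vldlr, a receptor for lipoproteins rich in triglyceride, read 44.8, 25.4 and 32.5 CPM in PC and 3.77, 1.88 and 1.55 CPM in PP. PC libraries were all higher (log2 fold change 3.81, SE 0.37, adjusted p = 0.0017). Fitm1, which acts in the storage of fat as droplets, differed by 3.93 (SE 0.26).

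The calls among cholesterol genes depended on single libraries. Of 24 genes of synthesis and uptake, 4 were called higher, beside 3.14% of all genes, and 0 lower. The median was 0.56, and 8 did not overlap with PC higher (33.3% of them, beside 13.1% of all genes). The number called was 7, 1 and 1 without PC replicates 1, 2 and 3, and 2, 0 and 7 without PP replicates 1, 2 and 3. Msmo1, a sterol methyl oxidase, read 242, 416 and 282 CPM in PC and 105, 118 and 146 CPM in PP. It was higher in all PC libraries (log2 fold change 1.35, SE 0.22, adjusted p = 0.0098) and lost its call without PP replicate 2 (adjusted p = 0.059).

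Of 13 bile acid synthesis genes, 5 were called higher in PC and 0 lower, beside 3.14% and 3.18% of all genes. Cyp7b1, of the alternative pathway, read 36.6, 42.4 and 29.6 CPM in PC and 9.21, 9.26 and 13.7 CPM in PP. The PC libraries did not overlap with PP (log2 fold change 1.76, SE 0.19, adjusted p = 0.0015). Cyp27a1, the sterol hydroxylase that begins the same pathway, read 530, 514 and 510 CPM in PC and 261, 239 and 243 CPM in PP. The spread within each group was small (log2 fold change 1.07, SE 0.10, adjusted p = 0.00051). Hsd3b7 differed by 1.26 (SE 0.13) and Akr1c6 by 1.97 (SE 0.15). Cyp8b1, which sets the share of cholic acid, differed by 1.05 and lost its call without PC replicate 2 (adjusted p = 0.074) or 3 (0.06), or PP replicate 2 (0.085).

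Transporters of organic ions included some of the highest folds. Of 22 transporters of bile acids and organic ions, 6 were called higher in PC and 1 lower, beside 3.14% and 3.18% of all genes. Slc13a3, a sodium-coupled dicarboxylate carrier, read 22.7, 32.3 and 28.8 CPM in PC and 0.09, 0.19 and 0.32 CPM in PP. It was close to absent in PP (log2 fold change 7.13, SE 0.30, adjusted p = 9.1e-06). The organic anion carriers Slco1a1 and Slco1b2 were higher in PC by 4.10 (SE 0.38) and 1.54 (SE 0.18). Slc22a7, an organic anion transporter, ran the other way, with 4.42, 4.47 and 7.9 CPM in PC and 21.6, 31.2 and 17.3 CPM in PP. Its PP libraries were all higher (log2 fold change -2.08, SE 0.30, adjusted p = 0.0078). The main bile acid uptake carrier Slc10a1 (0.09) and the bile salt export pump Abcb11 (-0.40) were not called.

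Of 39 cytochrome P450 genes of families 1 to 3 and their partners, 16 were called higher in PC and 2 lower, and 21 were not called. Their median was 0.62, and over all genes 3.14% were called higher and 3.18% lower. Cyp2e1, which oxidises ethanol and paracetamol, read 11164, 10024 and 9158 CPM in PC and 1290, 426 and 528 CPM in PP. PP replicate 1 held the most of the PP libraries, still far below PC (log2 fold change 3.76, SE 0.47, adjusted p = 0.0066). Cyp1a2, an aryl hydrocarbon receptor target that oxidises caffeine, read 813, 804 and 971 CPM in PC and 63.3, 51.3 and 82 CPM in PP. No PP library came near PC (log2 fold change 3.72, SE 0.19, adjusted p = 1.9e-05). Of the Cyp2c family, Cyp2c38, Cyp2c69 and Cyp2c29 differed by 2.77, 2.19 and 0.91. Cyp2a5 was higher in PC by 3.52 (SE 0.20), whereas Cyp2a4 was lower, at -2.80 (SE 0.44). Cyp2a4 lost its call without PC replicate 2 (adjusted p = 0.075) or 3 (0.078). Reads of Cyp2c genes, and of Cyp2a4 and Cyp2a5, are divided among near-identical copies by a model, so their values are uncertain. Cyp3a11, one of the most abundant enzymes of drug metabolism, read 7618, 6604 and 6137 CPM in PC and 3472, 2365 and 5380 CPM in PP. It was higher in PC in each library but was not called (log2 fold change 0.86, SE 0.28, adjusted p = 0.14). Ahr, the aryl hydrocarbon receptor itself, differed by 2.17 (SE 0.38) and lost its call without PC replicate 1 (adjusted p = 0.069), 2 (0.09) or 3 (0.082), or PP replicate 3 (0.069).

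The conjugating enzymes were split, with 7 of 41 called higher in PC and 5 lower, beside 3.14% and 3.18% of all genes. Sult5a1, a sulfotransferase, read 0.33, 0.68 and 0.6 CPM in PC and 10.6, 18.1 and 10.9 CPM in PP. It was near 0 in PC (log2 fold change -4.61, SE 0.34, adjusted p = 0.00018). Sult1b1, of the same family, was higher in PC by 1.12 (SE 0.16). Among glutathione transferases, Gstm2 (2.77, SE 0.25) and Gsta3 (0.81, SE 0.11) were higher in PC, and Gsta2 (-1.48, SE 0.15) and Gsta4 (-0.70, SE 0.09) lower. These families hold near-identical copies too, and the Ugt1a genes share exons, so Ugt1a9 (-1.65) and Ugt1a6b (0.95) are uncertain. Of 21 alcohol and aldehyde dehydrogenases and related enzymes, 8 were called higher and 2 lower, and the 8 became 5 without PC replicate 1 and 5 without PC replicate 2. Aldh1a1, which makes retinoic acid, read 2141, 2260 and 2305 CPM in PC and 917, 738 and 787 CPM in PP. Its PC libraries were all higher (log2 fold change 1.46, SE 0.12, adjusted p = 0.00031). Aldh1b1, its mitochondrial relative, read 1.97, 7.64 and 2.06 CPM in PC and 169, 249 and 293 CPM in PP. That is the reverse order, and it was the lowest log2 fold change among the genes that averaged 5 CPM or more (-5.90, SE 0.64, adjusted p = 0.0055). Fmo2, a flavin monooxygenase, was higher in PC by 2.05 (SE 0.17) and the carboxylesterase Ces2c by 2.36 (SE 0.28).

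**Figure D3:**
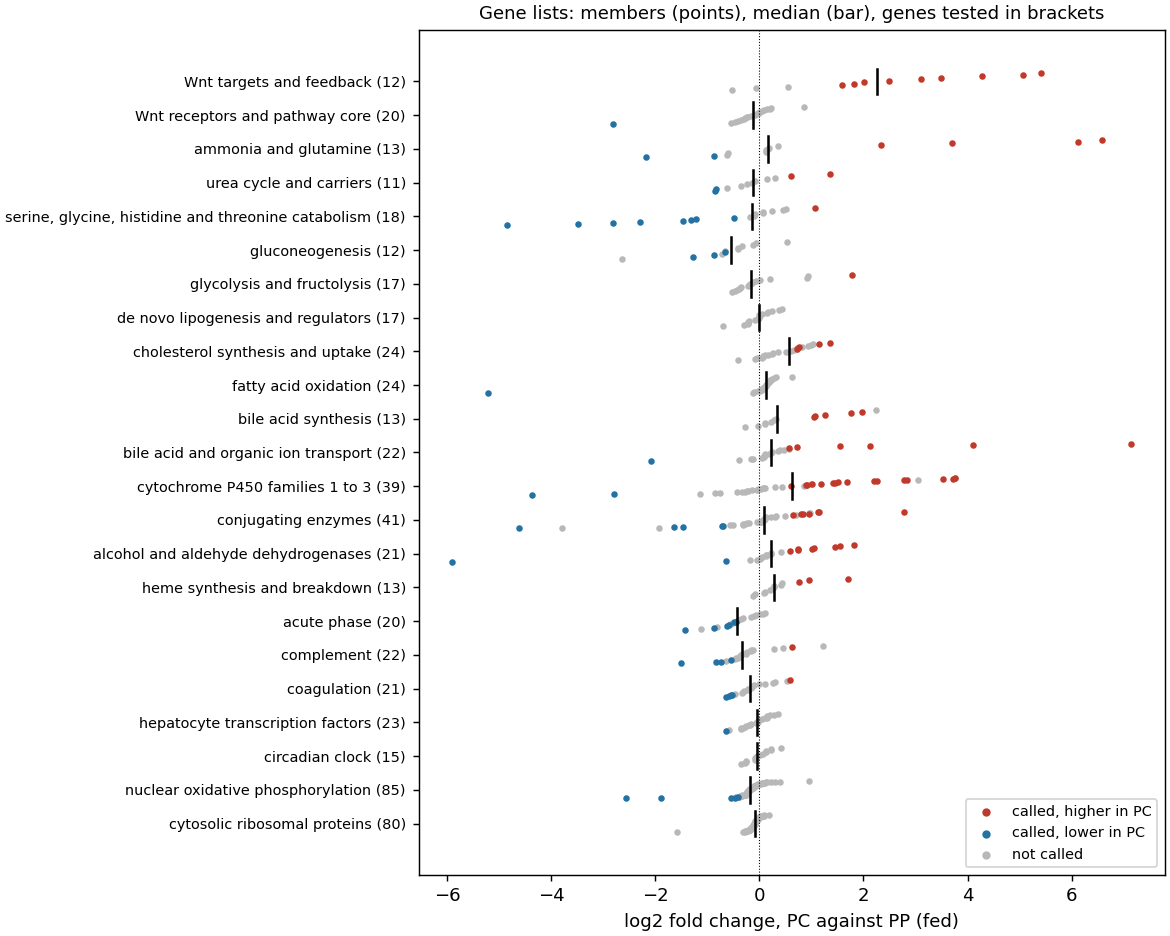
Log2 fold changes, PC against PP, of the genes tested in 23 lists, with red points for genes called higher in PC, blue points for genes called lower, grey points for genes not called and a bar at the median of each list. The Wnt target list lies at a median of 2.25 and the cytochrome P450 list at 0.62, while the lists of lipogenesis, the clock and ribosomal proteins lie at -0.01, -0.04 and -0.09.

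Growth factor receptors and adhesion proteins held a few large differences. Fgfr2, a fibroblast growth factor receptor, read 1.1, 2.18 and 0.91 CPM in PC and 33.4, 50.5 and 39.7 CPM in PP. All PP libraries were far higher (log2 fold change -4.85, SE 0.32, adjusted p = 0.00022). Dusp6, a phosphatase that ERK signalling induces and that switches ERK off, was higher in PC by 1.28 (SE 0.16). Of 20 genes in a list of growth factor and hormone receptors, which does not hold Fgfr2, 2 were called higher in PC and 0 lower. Without PC replicate 1, 2 or 3, 1 was left. Over all genes, 3.14% were called higher and 3.18% lower. Avpr1a, the vasopressin receptor, read 54.1, 81.9 and 79.5 CPM in PC and 12, 3.62 and 7.76 CPM in PP. PC libraries were all higher (log2 fold change 3.20, SE 0.42, adjusted p = 0.0095). The insulin receptor Insr and the glucagon receptor Gcgr differed by -0.09 and -0.07 and were not called. Of 10 Notch and Yap target genes, 4 were called lower in PC, and 2 were left without any 1 of PC replicates 1, 2 and 3 or PP replicates 2 and 3. Hes1, the classical Notch target, read 2.56, 3.57 and 2.97 CPM in PC and 11.2, 11.5 and 9.42 CPM in PP. Its PP libraries were all higher (log2 fold change -1.82, SE 0.18, adjusted p = 0.00068).

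Of 18 adhesion and junction genes, 2 were called in each direction, beside 3.14% of all genes called higher and 3.18% lower. Cdh1, E-cadherin, read 6.94, 10.2 and 8.31 CPM in PC and 67.1, 135 and 150 CPM in PP. The PP libraries were all higher (log2 fold change -3.79, SE 0.35, adjusted p = 0.002). Cdh2, N-cadherin, read 111, 132 and 116 CPM in PC and 69, 70.9 and 79.2 CPM in PP. It had the opposite order with a smaller difference (log2 fold change 0.71, SE 0.10, adjusted p = 0.0048). Cldn2, a claudin that makes tight junctions leaky to cations and water, read 147, 134 and 120 CPM in PC and 19.6, 11.6 and 11 CPM in PP. The groups were distinct (log2 fold change 3.24, SE 0.23, adjusted p = 0.00031).

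Of 23 transcription factors of hepatocyte identity tested, 1 was called, beside 6.32% of all genes. It was Gata6 (-0.64), which lost its call in each of the 6 fits (adjusted p = 0.07 to 0.15). Hnf4a itself differed by -0.16 and was not called. None of 15 clock genes was called by edgeR or DESeq2 (1 had an unadjusted p under 0.05), and the median was -0.04. Of 16 lipid-sensing nuclear receptors and partners, Pparg read 17.6, 17.9 and 17.4 CPM in PC and 8.51, 9.46 and 7.71 CPM in PP. It was higher in every PC library (log2 fold change 1.04, SE 0.12, adjusted p = 0.0014). Ppara, the receptor of fasting, differed by 0.69 and lost its call without PC replicates 1 (adjusted p = 0.13) and 2 (0.15) and PP replicates 2 (0.13) and 3 (0.11).

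Secreted plasma proteins were lower in PC where they were called, with some exceptions. Alb, albumin, was the most abundant transcript per length, with a mean of 39730 CPM per kb of exon. It read 67776, 71476 and 66566 CPM in PC and 108406, 129328 and 114738 CPM in PP. PP libraries were all higher (log2 fold change -0.78, SE 0.11, adjusted p = 0.0045). Hpx, hemopexin, which binds free heme in plasma, read 1418, 1523 and 1195 CPM in PC and 4009, 4001 and 3119 CPM in PP. It too was higher in all PP libraries (log2 fold change -1.43, SE 0.15, adjusted p = 0.0009). Over all genes, 3.18% were called lower in PC and 3.14% higher. Of 20 acute phase genes, 6 were called lower in PC and 0 higher, and the number was 2, 1 and 1 without PC replicates 1, 2 and 3. Of 22 complement genes, 4 were called lower and 1 higher, and 1 was lower without PC replicate 2 and 6 without PP replicate 3. C9, the pore-forming component, differed by -1.50 (SE 0.17). Of 21 coagulation genes, 4 were called lower and 1 higher. No lower call was left without PC replicate 1, 2 or 3 or PP replicate 2. Pon1, an esterase carried on HDL, was higher in PC, with 1455, 1432 and 1282 CPM in PC and 628, 422 and 414 CPM in PP. Its order was opposite to that of albumin (log2 fold change 1.51, SE 0.18, adjusted p = 0.0016). Inhbe, an activin subunit, was higher in PC by 0.99 (SE 0.13).

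Heme and iron genes went in different directions. Of 13 genes of heme synthesis and breakdown, 3 were called higher in PC and 0 lower, with no change in that count when any 1 library was left out. Over all genes, 3.14% were called higher and 3.18% lower. Blvrb, a biliverdin reductase, read 120, 118 and 99.9 CPM in PC and 38.3, 35.1 and 30.2 CPM in PP. PC libraries were all higher (log2 fold change 1.71, SE 0.12, adjusted p = 0.00014). The synthesis enzymes Alad and Cpox differed by 0.77 (SE 0.10) and 0.95 (SE 0.11). Slc40a1, ferroportin, the iron exporter, read 54.3, 56.3 and 43.2 CPM in PC and 117, 135 and 102 CPM in PP. It was higher in PP (log2 fold change -1.20, SE 0.14, adjusted p = 0.0016).

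Housekeeping and stress lists held 0 to 5 calls each, beside 6.32% of all genes called. Of 80 cytosolic ribosomal protein genes edgeR called 0 (2 had an unadjusted p under 0.05 and DESeq2 called 1), with a median of -0.09. Of 85 nuclear genes of oxidative phosphorylation, 5 were called lower in PC and 0 higher, and 35 did not overlap with PP higher (41.2% of them, beside 13.2% of all genes). Their median was -0.19, and the 5 calls became 1 without PC replicate 1 or 2 or PP replicate 2, 2 without PC replicate 3, 3 without PP replicate 1 and 12 without PP replicate 3. Of 22 immediate early and isolation stress genes, 2 were called lower in PC. Dusp1, a phosphatase of stress kinases, read 63.1, 89.3 and 60.1 CPM in PC and 156, 149 and 184 CPM in PP. PP libraries were all higher (log2 fold change -1.20, SE 0.17, adjusted p = 0.0038). None of 20 genes of the unfolded protein response was called by edgeR (3 had an unadjusted p under 0.05 and DESeq2 called 1), and the median was -0.35.

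Markers of other liver cells were low in all libraries. Summed over each list, endothelial markers came to 12.8 to 23.5 CPM in PC and 14.7 to 27.0 CPM in PP. Kupffer cell markers came to 3.1 to 10.2 CPM in PC and 3.0 to 13.8 CPM in PP. Markers of stellate cells came to 5.9 to 24.8 CPM in PC and 3.5 to 7.8 CPM in PP, and the ranges overlapped. Erythroid markers were higher in PC without overlap, at 12.4 to 51.1 CPM in PC and 9.2 to 11.2 CPM in PP, and of 4 tested 1 was called higher in PC. It was Alas2 (1.09), which lost its call without PC replicate 1 (adjusted p = 0.057) or 2 (0.054) or PP replicate 3 (0.062). Summed over the 4 tested, with TMM-scaled sizes, they read 17.0, 12.1 and 47.0 CPM in PC and 8.4, 11.4 and 9.8 CPM in PP. PC replicate 3 thus carried much of the difference. Without that library, 1 of them was called higher and 2 lower in PC. Cholangiocyte markers were higher in PP without overlap, at 39.5 to 45.8 CPM in PC and 60.0 to 70.1 CPM in PP. All 12 of them were in the table, and of 7 tested 2 were called lower in PC, Sox9 (-1.80) and Spp1 (-0.84, called except without PC replicate 1, where adjusted p = 0.05). The part of these cells in the zone differences was not tested. Sox9 is also in the Notch and Yap list. Over all genes, 6.32% were called.

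Most of the genes with the highest and lowest folds lay outside the classical markers. Lhpp, a phosphatase that acts on phosphorylated histidine, read 107, 91.8 and 96.4 CPM in PC and 2.32, 1.06 and 2.09 CPM in PP. The PC libraries were far higher (log2 fold change 5.75, SE 0.23, adjusted p = 9.1e-06). Rdh9, of the retinol dehydrogenase family, read 317, 304 and 313 CPM in PC and 11, 9.6 and 14.8 CPM in PP. Its small spread gave one of the lowest adjusted p-values of all genes (log2 fold change 4.72, SE 0.17, adjusted p = 7e-06). Also among the 15 highest were Nxpe2 (4.37, SE 0.29) and the calcineurin regulator Rcan2 (3.93, SE 0.26). Cryl1, a dehydrogenase of gulonate, read 1.13, 1.29 and 0.86 CPM in PC and 40.2, 54.6 and 61 CPM in PP. It was near 1 CPM in all PC libraries (log2 fold change -5.54, SE 0.22, adjusted p = 9.1e-06). Mmd2 (-5.29, SE 0.25), the basement membrane protein Nid1 (-3.90, SE 0.38) and Etnppl, which breaks down phosphoethanolamine (-3.61, SE 0.26), were lower in PC as well. Reck (-4.58) lost its call without PC replicate 2 (adjusted p = 0.052) or 3 (0.051). Serpina12 (-3.52) lost its call without PC replicate 1 (adjusted p = 0.092), 2 (0.07) or 3 (0.12).

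Some pairs of related or opposed genes were called in opposite directions. These pairs were chosen after their values were seen, and each gene kept its call in all 6 fits. Tle3, a co-repressor that binds TCF proteins, read 14.8, 11.5 and 11 CPM in PC and 5.22, 3.76 and 4.5 CPM in PP. Its relative Tle4 read 4.16, 4.14 and 4.13 CPM in PC and 17.5, 18.6 and 14.9 CPM in PP. The order of the zones was thus opposite (log2 fold changes 1.47, SE 0.18, and -2.04, SE 0.13). Of the carotenoid oxygenases, Bco2 was higher in PC by 1.03 (SE 0.11) and Bco1 lower, at -1.54 (SE 0.21). Of the aquaporins, Aqp4, a water channel, was lower, at -3.03 (SE 0.29), against 1.35 for Aqp9. Of the monocarboxylate carriers, Slc16a11 was higher by 2.35 (SE 0.23) and Slc16a6 lower, at -2.29 (SE 0.28).

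**Figure D4:**
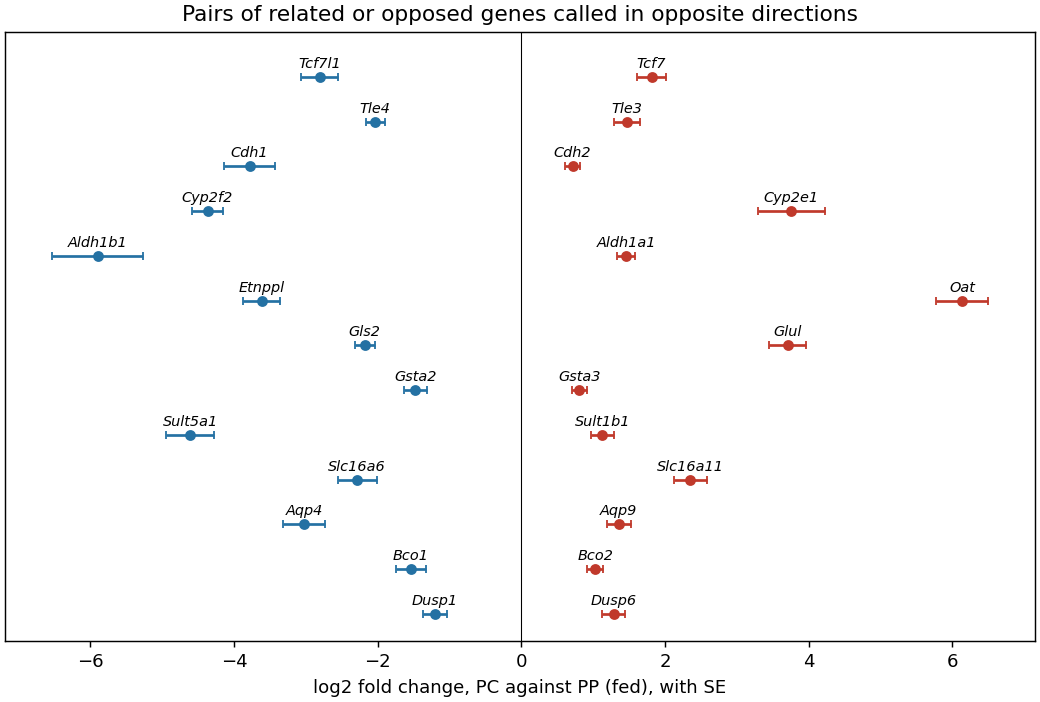
Log2 fold change, PC against PP, with SE, for 13 pairs of related or opposed genes chosen after their values were seen, 1 pair to a row. In each row the red gene was called higher and the blue gene lower in PC, as for Tle3 (1.47) and Tle4 (-2.04).

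Whether the zone differences were particular to the fed state was tested with the interaction, the difference between the zone contrasts of fed and fasted mice, in a fit of all 12 libraries. No gene was called by edgeR (0 of 12086), the lowest adjusted p was 0.088, and 465 genes (3.85%) had an unadjusted p under 0.05. DESeq2 called 11, and edgeR called 2 without fasted PC replicate 1. In the fit of all 12 libraries 570 genes were called in fed and 774 in fasted mice (6.4%, of which 405, or 3.35%, were higher in PC and 369, or 3.05%, lower), and 391 were called in both (68.6% of the fed and 50.5% of the fasted calls), 390 of them in the same direction. Fed and fasted contrasts share no library but share one estimate of the spread. Slc1a2 differed between the zones by 6.58 in fed and 8.71 in fasted mice, and Oat by 6.13 and 6.42. Cyp2f2 differed by -4.37 in fed and -3.38 in fasted mice, and Alb by -0.78 and -0.80. Pfkfb3 differed by 1.77 in fed and -0.01 in fasted mice, with an unadjusted interaction p of 0.0227 and an adjusted p of 1. Slco1a1 differed by 4.10 and 2.10 (unadjusted p = 0.0352, adjusted p = 1).

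**Figure D5:**
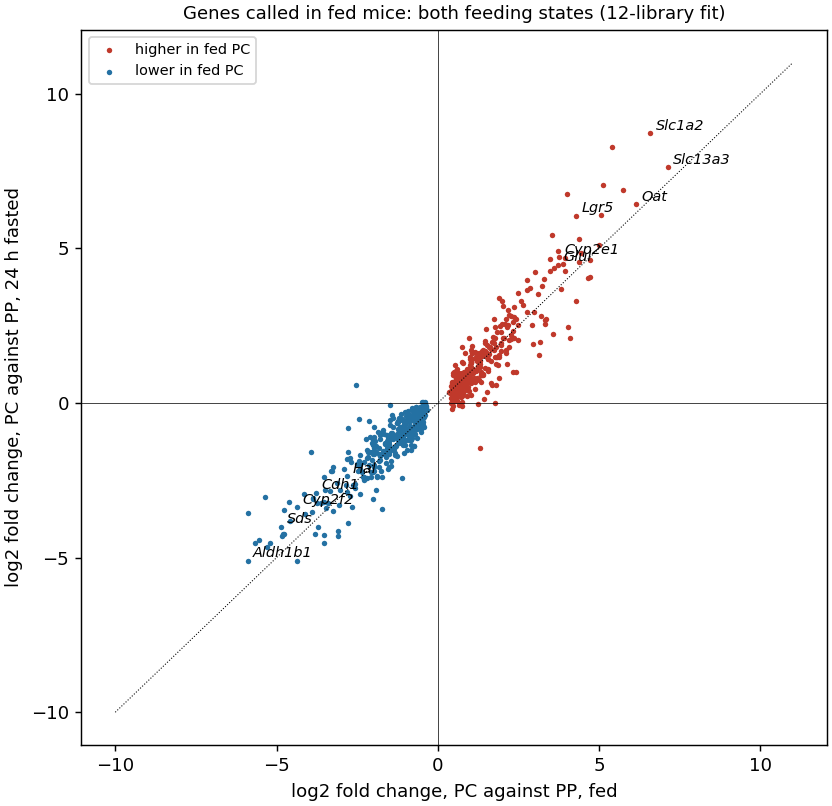
Log2 fold change, PC against PP, in fed mice (horizontal axis) and in mice fasted for 24 h (vertical axis), both from the fit of 12 libraries, for the genes called in fed mice, leaving out 3 genes without a count in one zone. Red genes were higher and blue genes lower in fed PC, the dotted line marks equal values, and Slc1a2 lies at 6.58 and 8.71.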

How the data were processed

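Total RNA of isolated hepatocytes was sequenced from NEBNext Ultra libraries, per the labels' protocols. This kit does not mark strand, so overlapping genes on opposite strands cannot be told apart. The authors deposited estimated counts per gene. The submitters' processing notes name kallisto 0.46.0 and the build mm10. Neither the annotation nor the summing of transcripts to genes is given in the sources used here. A model splits reads that fit several near-identical genes, which leaves close paralogs uncertain.

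All counts were first rounded to whole numbers. Symbols, coordinates and exon lengths came from GENCODE M21 for 27645 of 28030 identifiers. Genes were kept by filterByExpr, libraries were scaled by edgeR's TMM method, and genes were tested with edgeR 4.0.16 in R 4.3.3 (robust quasi-likelihood) on the 6 fed libraries alone, with 4 residual degrees of freedom. The interaction used all 12 libraries, with 8 residual degrees of freedom. Adjusted p-values are Benjamini-Hochberg values over all genes tested. SE is the unshrunk log2 fold change over the root of the test statistic. CPM uses TMM-scaled library sizes, except for sums over markers of other cells, which use the total count. The fit was tested on simulated data. Chi-square values per degree of freedom between libraries of a zone ran from 25.8 to 77.8, so none was a copy of another within sampling noise. DESeq2 1.42.0, other size factors, no filter, all 12 libraries, a replicate block and leaving out each library were the alternatives.

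By the naming rule, named genes are the 15 highest and 15 lowest log2 fold changes among called genes of at least 5 CPM, anchor genes of zonation and feeding, and members of each list by size of change or, if not called, by level. The comparison, the gene lists and these rules were chosen with earlier results of these data known, so no list is independent support. Rhbg, an anchor, was not analysed here, and a few genes that these rules choose are not reported here. Protein sequences were not used here.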

Additional observations from a re-analysis of the deposited data

How the results depend on the processing

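Direction was compared for the named genes that were called and for the anchors. A reversal was counted where the main fit or the alternative made a call and the directions differed (0 reversed). Other genes named without a call were not checked. Of 214 named genes that were called, 133 were called in each of the 6 fits that left out 1 fed library. Of the 235 genes compared, called genes and anchors, 51 lost their call with all 12 libraries in the fit. That loss is not given gene by gene. The count of 736 calls was 733 with DESeq2's size factors, 815 without the filter on low counts and 570 with all 12 libraries in the fit. It was 701 with the fasted libraries added except PC replicate 1, an alternative chosen after seeing the data. DESeq2's Wald test called 1131 genes, 572 higher and 559 lower in PC. In the fits that left out 1 library there were 351 to 828 calls, 192 to 394 higher and 159 to 434 lower. The sides were uneven in some of these fits: without PP replicate 3, 370 were higher and 294 lower. For the interaction, DESeq2 called 11 genes, edgeR 1 without the filter, and leaving out 1 of the 12 libraries gave 0 to 2, the 2 without fasted PC replicate 1.

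A fit with the replicate number as a block called 1211 genes, 619 higher and 592 lower in PC, and 0 for the interaction. The numbers share no stated source. Deviations from the group means correlated at 0.299, 0.033 and 0.157 between libraries of the same number 1, 2 and 3, and the libraries numbered 2 did not correlate best with each other. The second principal component (19.9% of the variance) ordered the numbers alike in both zones, at 20.7, -3.2 and -21.1 in PC and 32.7, -2.8 and -26.3 in PP. As 1 of the 3 correlations was under 0.1, the numbers were not taken as pairs. That correlation is of the libraries numbered 2, which lay near the middle of this component in both zones. The component could thus add little to it, and whether the numbers share a source was not tested.

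With 3 libraries a zone, the smallest log2 difference called was 0.34. Genes below 1 CPM rest on few counts.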

Other observations

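A few regulators outside the lists were zoned at low levels. They were chosen after their values were seen, and each kept its call in all 6 fits that left out 1 library. Mycn, a MYC family transcription factor, read 1.5, 3.14 and 1.86 CPM in PC and 0.13, 0 and 0.11 CPM in PP. It was near 0 in PP (log2 fold change 4.67, SE 0.66, adjusted p = 0.0037). Olig1, known as an oligodendrocyte transcription factor, was higher in PC by 3.33 (SE 0.40), and the orphan nuclear receptor Esrrg by 2.25 (SE 0.25). Lower in PC were Pygo1, a co-activator of beta-catenin (-2.06, SE 0.29), and Tcf24 (-2.72, SE 0.28).

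Some fibroblast growth factor and Hedgehog genes, also chosen after their values were seen, were called. Fgfr1 read 0.18, 0.36 and 0.25 CPM in PC and 1.18, 4.49 and 3.69 CPM in PP. All PP libraries were higher, as they were for Fgfr2 (log2 fold change -3.53, SE 0.57, adjusted p = 0.0078). The ligand Fgf1 read 142, 158 and 169 CPM in PC and 93.6, 101 and 104 CPM in PP. It was higher in PC (log2 fold change 0.65, SE 0.10, adjusted p = 0.0067). Evc and Evc2, partners in Hedgehog signalling at the cilium, were lower in PC, at -3.26 (SE 0.33) and -3.53 (SE 0.49).

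Some called genes had no count in any library of a zone. Slc22a3, an organic cation transporter, had 146, 262 and 281 counts in the PC libraries and 0 in each PP library, which makes it at least 66.0-fold higher in PC with a floor of 3 counts per library. Hsd17b6, a hydroxysteroid dehydrogenase, had 0 counts in each PC library and 59, 52 and 52 in the PP libraries, at least 21.4-fold lower in PC. Slc26a4, an anion exchanger, had 25, 24 and 13 counts in PC and 0 in each PP library, at least 5.6-fold higher.

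Arhgef37, chosen after its values were seen, was called in fed mice and differed between the zones by 1.24 in fed and -0.05 in fasted mice. Its interaction had an unadjusted p of 0.00142 and did not pass the adjustment (adjusted p = 1).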
